A study of Mus musculus with 2 samples.

Results

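Strong nucleosomes that were called in ethanol-treated cells and had no counterpart after tamoxifen are described here. They are the autosomal calls of the ethanol list with an authors' score of 200 or more whose centre, the midpoint of start and end, lay over 200 bp from every centre in the tamoxifen list. There were 3098 of them (Poisson interval 2990 to 3209) among 124463 strong autosomal ethanol calls, or 2.49% (Wilson interval 2.40 to 2.58%), and among 1289694 autosomal ethanol calls of any score. Both the score and the distance to the tamoxifen calls chose them, so these values are given as a description, without a test.

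The cells, embryonic stem (ES) cells of the mouse, are Brg1fl/fl, with both Brg1 alleles floxed, and carry the Actin-CreER transgene, a Cre recombinase driven by an actin promoter and switched on by tamoxifen. They were grown in serum with LIF on gelatin and given 0.8 µM tamoxifen, or the same volume of ethanol, for 24 hours, followed by 48 hours without either. Both groups share the genotype and the transgene, and each is 1 MNase-seq library from a 12 U digest, so nothing below can be set against the spread between cultures. All intervals are 95% and cover counting error only, with calls treated as independent counts.

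Brg1 is the motor subunit of esBAF, a chromatin remodeler of the SWI/SNF family that is found in ES cells and uses ATP to slide or evict nucleosomes. Micrococcal nuclease (MNase) cuts the linker between nucleosomes, and the protected DNA of the mononucleosome band shows where they sat. A call is a place where such fragments piled up enough to pass the authors' cutoffs. A nucleosome without a call in the other list is therefore not shown to be lost, since a lower pile-up or a less fixed position also leaves no call.

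Strong calls of ethanol-treated cells were nearly all found again after tamoxifen. Of the 124463 strong ethanol calls, 71.2% (71.0 to 71.5%) had a tamoxifen centre within 20 bp and 95.3% (95.2 to 95.4%) had one within 100 bp. A further 2767 lay 100 to 200 bp from the nearest tamoxifen centre, which leaves the 2.49% without a partner. Among autosomal ethanol calls of any score the unmatched share was 26.8%, and among autosomal tamoxifen calls of any score, against ethanol centres, 32.5%.

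The opposite set was larger. By the same rule with the lists exchanged, 3860 strong tamoxifen calls (3739 to 3984) of 129892, or 2.97% (2.88 to 3.07%), had no ethanol centre within 200 bp. The ethanol-only share was 0.838 times the tamoxifen-only share (0.799 to 0.878). The tamoxifen list is also the longer one, with 1413182 autosomal calls, and the part of list length in the ratio was not tested. With a score minimum of 300 the shares were level, at a ratio of 1.00 (0.894 to 1.13). A single library per group gives no measure of the share that 2 ethanol libraries would leave unmatched.

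Ethanol-only nucleosomes sat mostly just above the score minimum. Their median score was 229.9, against 266.0 for all strong ethanol calls, and 64.3% of them (62.6 to 66.0%) scored 200 to 250, against 41.3% (41.1 to 41.6%) of all strong calls. Tamoxifen-only strong calls were alike, with a median of 229.0 against 264.5 for all strong tamoxifen calls. Of them, 68.4% (67.0 to 69.9%) scored 200 to 250. The unmatched share of ethanol calls was 36.9% at scores of 50 to 100 and 7.92% at 150 to 200. It was 3.87% (3.71 to 4.04%) at 200 to 250, 2.04% at 250 to 300 and 0.918% (0.771 to 1.09%) at 400 to 600. The decline with score ended there. Calls at the maximum score of 3250 were unmatched in 25 of 645 cases, or 3.88% (2.64 to 5.66%).

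**Figure D1:**
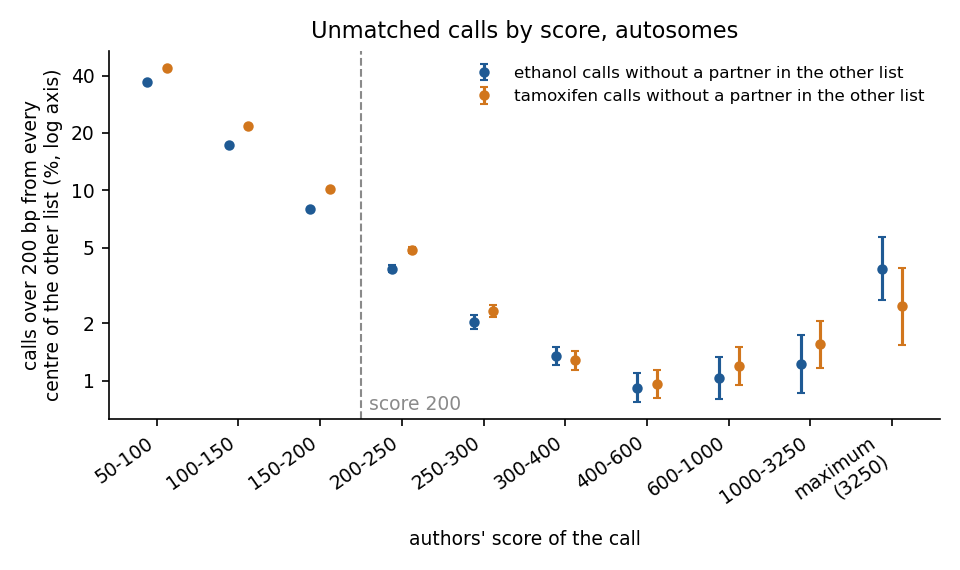
Share of autosomal calls over 200 bp from every centre of the other list (log axis) by the authors' score, for ethanol calls and tamoxifen calls, with 95% Wilson intervals. The ethanol share falls from 36.9% in the lowest class to 0.918% at scores of 400 to 600 and is 3.88% at the maximum score.

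Values close to the thresholds show how little separates the chosen calls from the rest. A score of 200.1, the lowest among them, was shared by 13, and another 45 unmatched ethanol calls scored 199.9 and were not counted. Scores of 200 to 210 held 621 ethanol-only nucleosomes, while 899 unmatched calls scored 190 to 200. The shortest distance to a tamoxifen centre, 205 bp, occurred 79 times, and 78 strong calls at exactly 200 bp were left out. An example just inside is the call at chr1:5100561-5100731 (all positions are on mm9, as deposited), with a score of 399.8 and 205 bp to the nearest tamoxifen centre. An example just outside is chr1:37672821-37672981, with a score of 213.8 and 200 bp.

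Most ethanol-only nucleosomes had a tamoxifen call within 1 kb, beyond the 200 bp that the rule clears. The median distance was 435 bp, with 951 at 200 to 300 bp, 816 at 300 to 500 bp and 788 at 500 to 1000 bp. Another 367 lay 1000 to 2000 bp away, 148 at 2000 to 5000 bp and 28 farther than 5000 bp. The nearest tamoxifen call had a median score of 98.2 (95.1 to 101) and was itself strong in 552 cases, or 17.8% (16.5 to 19.2%). Of all autosomal tamoxifen calls 9.19% were strong, but for the other strong ethanol calls the nearest tamoxifen call over 200 bp away was strong in 17.3% (17.1 to 17.5%), close to the ethanol-only value.

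Of the 5 farthest from any tamoxifen call, 4 also had no other ethanol call for several kb. The farthest, at chr1:144264291-144264501, had a score of 200.1 and its nearest tamoxifen centre 17405 bp away, but another ethanol call at 2055 bp. At chr1:159985141-159985351 the distance was 12230 bp, and the nearest other ethanol call was 12220 bp away. On chromosome 14, the call at chr14:84987541-84987751 was 11835 bp from a tamoxifen centre and 11415 bp from another ethanol call. The call at chr3:45120231-45120321 had 10895 bp and 10090 bp by the same measures, and chr7:11306271-11306431 had 9715 bp and 8355 bp. All 5 scored between 200.1 and 219.3, near the score minimum.

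Width set the ethanol-only nucleosomes apart from other strong calls, and the rule did not use it directly. They measured 142.7 bp on average (SD 42.6 across 3098 calls, median 140 bp), against 119.9 bp (SD 34.5 across 121365 calls, median 110 bp) for the other strong ethanol calls. Widths of 150 to 240 bp made up 46.1% of them (44.3 to 47.8%) and 21.6% (21.4 to 21.9%) of the others. Widths of 80 to 100 bp made up 25.8% (24.3 to 27.4%) and 46.6% (46.3 to 46.9%). Read the other way, 1.30% (1.20 to 1.40%) of strong calls 90 to 100 bp wide had no tamoxifen partner, and 7.54% (6.76 to 8.41%) of those 210 to 240 bp wide.

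The relation to width was present within classes of score. At scores of 200 to 250, the unmatched share went from 2.15% (1.96 to 2.36%) at 90 to 100 bp through 5.99% (5.36 to 6.69%) at 150 to 160 bp to 11.5% (9.97 to 13.2%) at 210 to 240 bp. At 250 to 400 the share was 0.806% (0.693 to 0.939%) for the narrow and 5.91% (4.88 to 7.13%) for the widest class, and at 400 or more 0.510% (0.385 to 0.676%) and 3.34% (2.27 to 4.89%). The narrowest calls, 80 bp wide, departed from this order at scores of 250 to 400, with 1.71% (1.28 to 2.29%) unmatched. They also did so at scores of 400 or more, with 42 of 1883 unmatched, or 2.23% (1.65 to 3.00%). Among the 25 ethanol-only calls at the maximum score, 17 were 80 to 100 bp wide and 5 were 150 bp or wider.

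Width was similar at greater distances from the tamoxifen calls. The 2147 ethanol-only nucleosomes over 300 bp from a tamoxifen centre averaged 144.5 bp (SD 42.4), and the 543 over 1000 bp away 145.5 bp (SD 42.7). Tamoxifen-only strong calls were as wide as ethanol-only ones, at 143.2 bp on average (SD 41.9 across 3860 calls), against 120.8 bp (SD 34.8) for the other strong tamoxifen calls. Strong calls without a partner were thus the wider ones in both directions of the comparison. The rule may bear on width indirectly, since a close neighbour shared with the tamoxifen list counts as a partner. Among other strong ethanol calls, 25.1% of those 80 to 120 bp wide had their nearest ethanol call from 140 to under 200 bp away. Among those of 150 bp or wider it was 5.23%. The part of this, and of width, in the missing partners was not tested. Counting a call as unmatched only where over 200 bp lay between the edges left 2009 ethanol-only nucleosomes, or 1.61% of the strong calls.

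**Figure D2:**
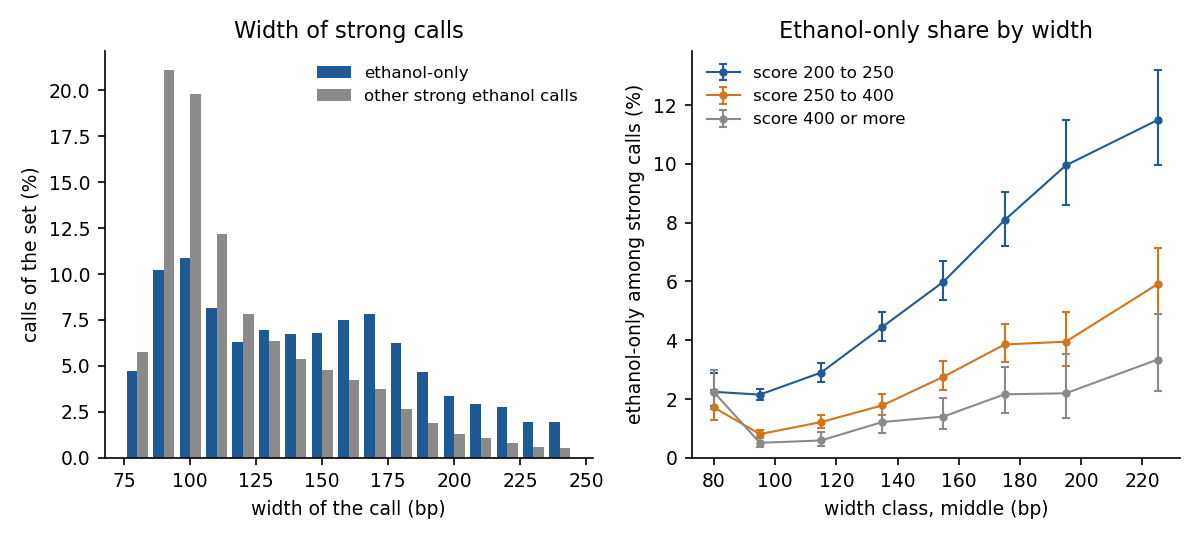
Left, width of the 3098 ethanol-only nucleosomes and the 121365 other strong ethanol calls, as percent of each set. Right, share of strong ethanol calls that are ethanol-only by width class within 3 classes of score, with 95% Wilson intervals. Shares are highest for the widest calls, 11.5% at scores of 200 to 250.

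Ethanol-only nucleosomes were found on all 19 autosomes. Chromosome 8 held 360 of them and chromosome 12 held 251, the most of any autosome, and these 2 chromosomes also carry the most strong calls. Relative to those strong calls they were the poorest, with 1.84% (1.66 to 2.04%) on chromosome 8 and 1.75% (1.55 to 1.98%) on chromosome 12. The other 17 autosomes ranged from 2.35% (1.96 to 2.81%) on chromosome 10 to 3.06% (2.65 to 3.54%) on chromosome 9, with a median of 2.82%. The intervals of all 17 overlap, so their order is not resolved.

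The lower share of chromosomes 8 and 12 was present within classes of score. At scores of 200 to 250 the ethanol-only share was 2.81% (2.53 to 3.11%) on these 2 chromosomes and 4.22% (4.03 to 4.43%) on the other 17. It was 1.41% (1.23 to 1.61%) and 1.84% (1.71 to 1.98%) at 250 to 400, and 0.691% (0.517 to 0.923%) and 1.11% (0.952 to 1.28%) from 400 to below the maximum. Each of the 19 autosomes had a lower ethanol-only than tamoxifen-only share, but the 2 intervals were apart only on chromosomes 8, 10 and 12. All 19 come from the same 2 libraries, so they do not repeat the comparison.

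**Figure D3:**
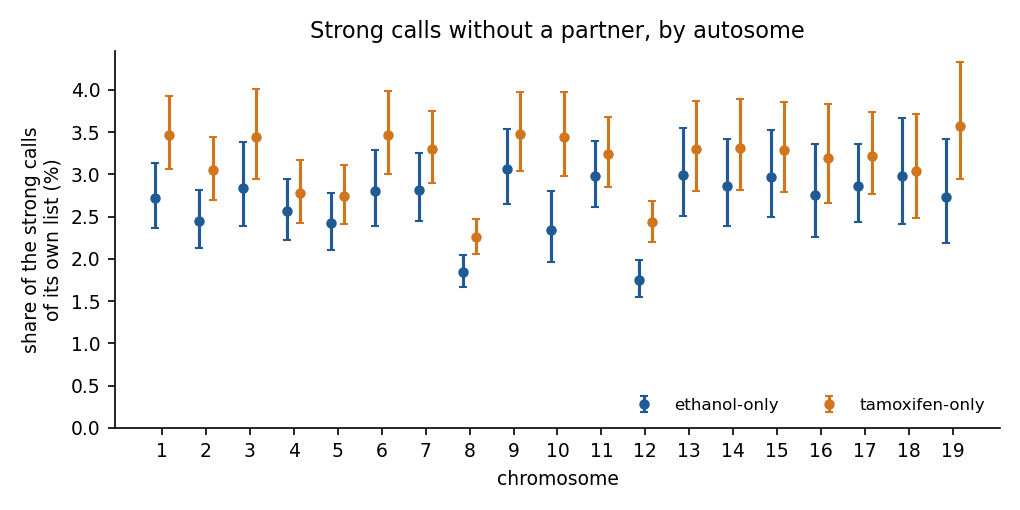
Strong calls without a partner as percent of the strong calls of their own list on each autosome, ethanol-only and tamoxifen-only, with 95% Wilson intervals. Chromosomes 8 and 12 have the lowest shares, 1.84 and 1.75% for ethanol-only calls.

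The ethanol-only share varied little with call density except where calls were densest. Strong ethanol calls were divided into 5 classes by the number of ethanol calls in their 100 kb window. The ethanol-only share was 2.70% (2.51 to 2.91%) in windows with up to 59 calls, 2.72%, 2.59% and 2.50% in the next classes, and 1.93% (1.77 to 2.11%) in windows with 153 to 293 calls. The corresponding shares for scores of 200 to 250 were 4.02% in the sparsest and 3.00% (2.67 to 3.38%) in the densest class. The rule bears on this, since denser calls leave fewer places over 200 bp from every centre. Chromosomes 8 and 12 were the densest autosomes, with 894 and 816 ethanol calls per Mb. The part of density in their lower shares was not tested.

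Ethanol-only nucleosomes were scattered singly. Of the 3098, 2961 had no other ethanol-only nucleosome within 1 kb, and among the rest 61 groups held 2 and 5 groups held 3. The median distance from one to the nearest other was 139765 bp. Another one lay within 1 kb for 4.42% of them (3.75 to 5.20%) and within 100 kb for 42.2%. For strong ethanol calls as a whole 31.7% had another strong call within 1 kb, but that set is far larger, so the shares cannot be compared directly.

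At distances up to 400 bp, strong calls near an ethanol-only nucleosome were ethanol-only more often than strong calls as a whole. Strong ethanol calls within 400 bp of an ethanol-only nucleosome were themselves ethanol-only in 111 of 590 cases, or 18.8% (15.9 to 22.2%). At this range the cleared distances overlap, so a single space without tamoxifen calls admits both neighbours under the rule. From 400 to 1000 bp the share was 3.19% (2.19 to 4.63%) and from 1000 to 5000 bp 2.12% (1.70 to 2.63%). Both intervals include the 2.49% of all strong calls. From 5000 to 10000 bp the share was 1.78% (1.42 to 2.23%), with the interval wholly below that value. Beyond 100 kb it was 2.48% (2.37 to 2.59%), close to the 2.49% of all strong calls.

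Most windows of 1 Mb held few ethanol-only nucleosomes. Of 2417 windows with ethanol calls, 1084 held no ethanol-only nucleosome, 575 held 1 and 306 held 2. The highest count, 13, was reached in 3 windows. Of these, chr8:72000001-73000000 had 501 strong calls and chr8:122000001-123000000 had 617, so that 2.59% (1.52 to 4.39%) and 2.11% (1.24 to 3.57%) of their strong calls were ethanol-only. The third window, chr9:3000001-4000000, had only 79 strong calls and thus a share of 16.5% (9.88 to 26.1%), the highest of 869 windows with at least 50 strong calls. The window next in rank, chr6:31000001-32000000, had 7 of 59 (11.9%, 5.87 to 22.5%), and its interval overlaps. In 53 of the 869 windows the interval of the share lay wholly above the 2.49% of all strong calls, and in 11 wholly below it, without adjustment for their number.

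All 13 ethanol-only nucleosomes of that chromosome 9 window had the maximum score of 3250. They lay in its first part, where the assembled sequence of a mouse chromosome begins next to the centromere, with centres from 3000471 to 3036621 on mm9. In these 36150 bp the ethanol list had 61 calls and the tamoxifen list 51, and every one of them had the maximum score in its list. Of the 61 ethanol calls, 45 had a tamoxifen centre within 20 bp and 13 (21.3%, 12.9 to 33.1%) had none within 200 bp. Of the 51 tamoxifen calls, 3 (5.88%, 2.02 to 15.9%) had no ethanol centre within 200 bp. The 13 were 80 to 140 bp wide and lay 250 to 1300 bp from a tamoxifen centre. The stretch was chosen after the values had been seen, and its boundaries are those of the 13 calls.

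This stretch alone held 13 of the 25 ethanol-only nucleosomes at the maximum score. Outside it, 12 of 584 ethanol calls at the maximum were unmatched, or 2.05% (1.18 to 3.56%), and 14 of 638 tamoxifen calls, or 2.19% (1.31 to 3.65%). Without the stretch the ethanol-only share on chromosome 9 was 2.87% (2.46 to 3.33%). First megabases with calls on the other 18 autosomes had 34 of 1627 strong calls unmatched, or 2.09% (1.50 to 2.91%), and the last megabases of all 19 had 22 of 905, or 2.43% (1.61 to 3.65%).

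The 12 others at the maximum score were on 8 chromosomes, and chromosomes 8 and 11 held 3 each. Of these 12, 2 on chromosome 11 lay in its first megabase with calls, and the 1 on chromosome 1 lay in its last. With the chromosome 9 stretch, 15 of the 25 lay in a first megabase with calls. The same share for all calls at the maximum score was not counted. The first 5 of the 25 in chromosome order, all tied in score, fall into kinds that differ in their surroundings. The calls at chr1:197105361-197105531 and chr3:9861691-9861861, each 170 bp wide, were 2000 and 1050 bp from the nearest tamoxifen centres, which scored 51.9 and 67.0. At chr5:113662411-113662581, also 170 bp wide, the nearest tamoxifen centre was 345 bp away and scored 79.5. On chromosome 8 the calls at chr8:14307061-14307201 and chr8:19720501-19720711 faced tamoxifen calls of the maximum score at 295 and 270 bp. For these 5 the nearest tamoxifen call was thus either weak, at 345 to 2000 bp, or at the same maximum, at 295 and 270 bp.

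Groups of 3 were rare. The 5 were tied in size, and the 3 with the highest summed scores are described. Those left out, on chromosomes 15 and 9, had scores of 451.6 to 603.5 and 380.1 to 623.6. The group with the highest summed score began the chromosome 9 stretch, with 3 calls of score 3250 between centres 3000471 and 3001441 and no tamoxifen call among them. On chromosome 11, centres 3039441, 3039671 and 3040211 had scores of 3250, 1676.6 and 1479.5, and a single tamoxifen call, with a score of 3250, lay among them at 3039956. On chromosome 4, centres from 147012351 to 147013301 had scores of 202.7, 719.6 and 1225.8, with no tamoxifen call between them and tamoxifen calls of 496.9 and 580.4 as their nearest.

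A small number of ethanol-only nucleosomes faced a strong tamoxifen-only call. For 28 of them, or 0.904% (0.626 to 1.30%), the nearest tamoxifen call was itself strong and without an ethanol centre within 200 bp. For the other strong ethanol calls the nearest tamoxifen call over 200 bp away was of this kind in 0.517% (0.479 to 0.559%), and among all tamoxifen calls the share was 0.273%. Counted among strong nearest calls alone, the shares were 5.07% (3.53 to 7.23%) of 552 and 3.00% (2.77 to 3.23%) of 20965. The distance was 205 to 2060 bp with a median of 267.5 bp, and 18 of the 28 pairs were within 400 bp. At chr10:7234611-7234691 an ethanol call of score 3250 faced a tamoxifen call of score 3250 centred 335 bp away. A tamoxifen call of score 1956 at chr17:84861131-84861371 stood between ethanol-only calls of 751.4 and 850.5, centred 230 and 210 bp to its sides. These pairs were looked for after the other values had been seen.

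Around the cleared 200 bp, tamoxifen calls were about as frequent as around other strong nucleosomes. From 200 to 500 bp on both sides together, ethanol-only nucleosomes had 0.848 other ethanol calls and 0.857 tamoxifen calls on average, against 0.833 and 0.852 around the other strong calls. By 100 bp class the tamoxifen means were 0.351 against 0.307 at 200 to 300 bp, and 0.239 against 0.289 at 300 to 400 bp. At 400 to 500 bp they were 0.267 and 0.256. From 500 to 1000 bp the ethanol and tamoxifen means were 1.16 and 1.24, against 1.24 and 1.31. The number of tamoxifen calls per ethanol call was 1.01 and 1.02 for the 2 sets at 200 to 500 bp, 1.07 and 1.05 at 500 to 1000 bp, and 1.06 in both at 10000 to 50000 bp. At every range from 500 to 50000 bp both lists were thinner around the ethanol-only nucleosomes, and the tamoxifen list was not thinner than the ethanol list. Tamoxifen means were 2.27 against 2.52 at 1000 to 2000 bp, and 85.9 against 91.2 at 10000 to 50000 bp.

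**Figure D4:**
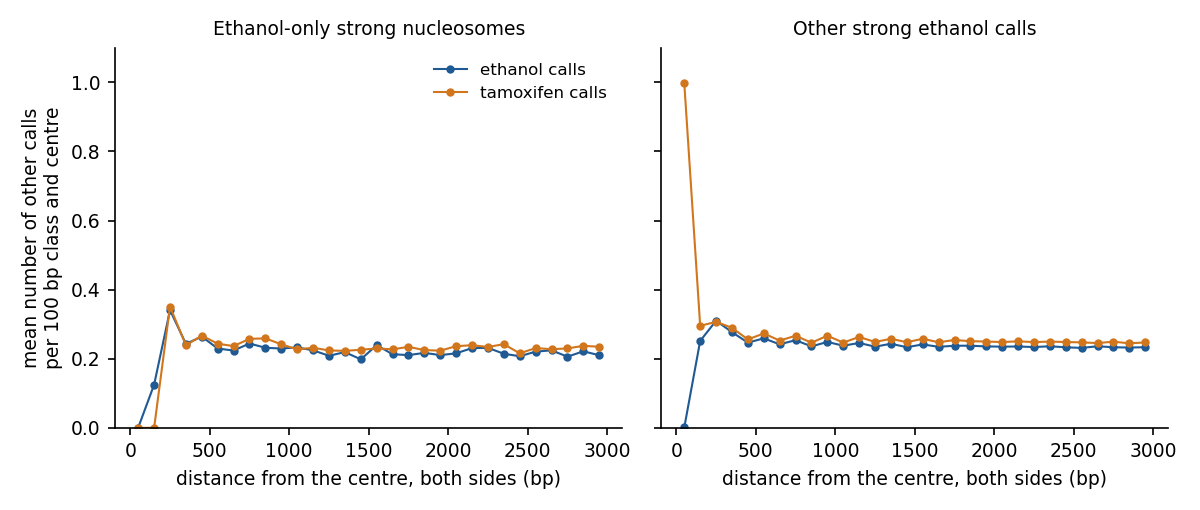
Mean number of other calls per 100 bp class of distance from the centre, both sides added, around the ethanol-only nucleosomes (left) and the other strong ethanol calls (right). Tamoxifen calls are absent up to 200 bp on the left by the rule, and from 200 to 500 bp the means are 0.857 on the left and 0.852 on the right.

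The neighbours of ethanol-only nucleosomes mostly had a tamoxifen partner. The nearest ethanol call 300 to 1000 bp away was taken on each side, a range in which the rule forbids no partner. Of 3531 such neighbours, 59.4% (57.8 to 61.1%) had a tamoxifen centre within 40 bp, against 62.9% (62.6 to 63.1%) of the 141254 neighbours of other strong calls. The order was the same by class of neighbour score. Neighbours scored under 100 had a partner in 46.9% (44.6 to 49.1%) and 48.3% (48.0 to 48.7%), those of 100 to 200 in 68.2% (65.3 to 71.0%) and 71.9% (71.5 to 72.3%), and strong neighbours in 80.4% (77.2 to 83.3%) and 85.4% (85.0 to 85.8%). The difference in the lowest class lies within the counting intervals. Without chromosomes 8 and 12 the 2 shares were 56.5% (54.6 to 58.4%) and 60.5% (60.2 to 60.8%). At 5000 to 10000 bp neighbours of any score had a partner in 56.9% (55.6 to 58.1%) and 59.9% (59.7 to 60.1%), so the overall shortfall was present at that distance too. There it lay in neighbours scored under 100, with 43.9% (42.3 to 45.6%) and 47.3% (47.0 to 47.6%), while strong neighbours had a partner in 87.1% (84.3 to 89.4%) and 86.8% (86.4 to 87.2%).

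Close ethanol neighbours were fewer. Of the ethanol-only nucleosomes 9.49% (8.51 to 10.6%) had their nearest ethanol call from 140 to under 200 bp away, the distance of directly adjacent nucleosomes, against 19.4% (19.2 to 19.6%) of the other strong calls. From 200 to 250 bp the shares were 18.9% (17.5 to 20.3%) and 17.1% (16.9 to 17.3%). The rule bears on this, since a neighbour under 200 bp away that is shared with the tamoxifen list removes a call from the set. Width bears on it as well. For calls 80 to 120 bp wide the shares from 140 to under 200 bp were 16.4% (14.4 to 18.5%) and 25.1% (24.8 to 25.4%), and for calls of 150 bp or wider 3.22% (2.43 to 4.27%) and 5.23% (4.97 to 5.51%). The nearest ethanol call was over 1000 bp away for 18.0% (16.7 to 19.4%) of the ethanol-only nucleosomes and 15.0% (14.8 to 15.2%) of the others.

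The spaces without tamoxifen calls that held the ethanol-only nucleosomes had more ethanol calls than like spaces around weaker calls. There were 3035 such gaps between successive tamoxifen centres, 60 of them with more than 1 ethanol-only nucleosome, and their median length was 1630 bp. In 740 gaps (24.4%) the strong call was the only ethanol call, 1146 gaps held 2 ethanol calls and 777 held 3. Another 372 (12.3%) held 4 or more. These counts include an ethanol call that matched a bounding tamoxifen centre where it lay on the inner side of that centre. For comparison, gaps were taken in which every ethanol call over 200 bp from a tamoxifen centre scored under 200. Among gaps over 1000 and up to 2000 bp long, the strong call stood alone in 25.3% (22.7 to 28.1%) of 995, and a weaker one in 35.8% (35.5 to 36.1%) of 78613. In the same length class 9.75% (8.06 to 11.7%) and 3.91% (3.78 to 4.05%) held 4 or more ethanol calls. The order was the same for gaps over 400 and up to 1000 bp and for those over 2000 and up to 5000 bp. The choice of gaps bears on this order, since a gap with more ethanol calls has more chances to hold a strong one. The part of that choice in the difference was not tested.

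The gap with the most ethanol calls lay on chromosome 9, between tamoxifen centres 21468086 and 21470691, a distance of 2605 bp. It held 9 ethanol calls, of which the first, at 21468091, matched the left tamoxifen call. The other 8 had scores of 54.5 to 237.2, lay 180 to 335 bp apart and had no tamoxifen centre within 300 bp. The ethanol-only nucleosome among them, chr9:21468861-21468961, scored 237.2 and was 825 bp from the nearest tamoxifen centre. On both sides the lists agree within 30 bp at most calls again, as at ethanol centres 21467021 and 21471126, which had tamoxifen centres 10 and 15 bp away. Smarca4, the gene of Brg1 that is floxed in these cells, is on chromosome 9 as well. The place of the gap relative to it was not analysed here. Whether DNA removed by Cre lies in the gap, where it could give no tamoxifen call, was not tested. The gap that followed in number of calls, between 44723131 and 44727796 on chromosome 4, held 8 ethanol calls in 4665 bp, with a highest score of 220.8. All 8 lay over 100 bp from a tamoxifen centre, as did 8 of the 9 in the chromosome 9 gap. By that count the gaps were level.

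**Figure D5:**
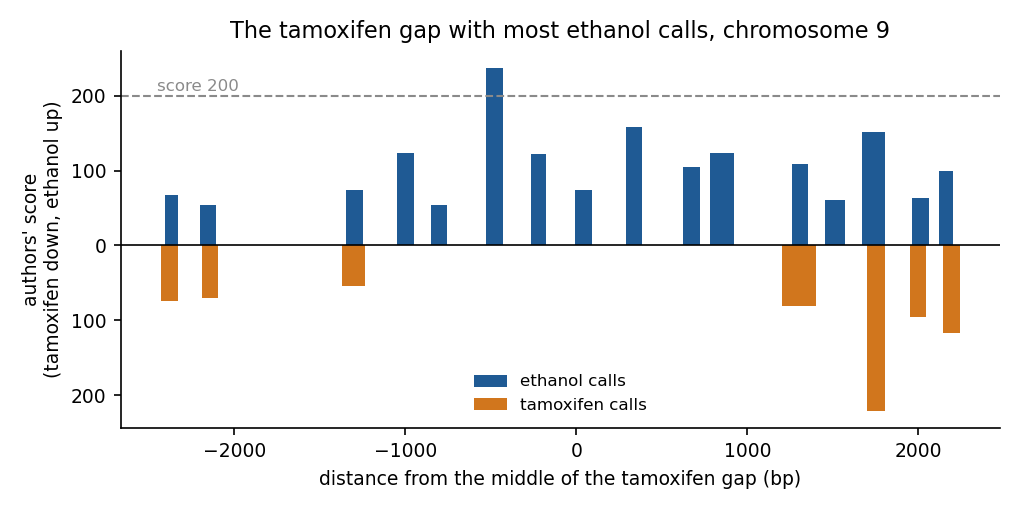
Called nucleosomes in and around the tamoxifen gap on chromosome 9, with ethanol calls drawn upward and tamoxifen calls downward, height showing the authors' score and bar width the width of the call. The 8 unmatched ethanol calls stand between tamoxifen calls 2605 bp apart, and 1 of them, with 237.2, passes a score of 200.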

How the data were processed

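Mononucleosome DNA of Brg1fl/fl ES cells was sequenced in 2 libraries, and the authors deposited 1 list of called nucleosomes for each, with chromosome, start, end and a score. Reads were aligned with Bowtie 0.12.9 to mm9, according to the submitters' processing notes. What called the nucleosomes, with which cutoffs, what the deposited score means and how duplicate reads or reads with several map positions were treated was not given in the sources used here. Scores run from 50.1 to 3250 in both lists, are the authors', and the same minimum was applied to both lists. That a score means the same in both was not tested, and this touches each value that sets scores of the 2 lists side by side. Positions are as deposited, on a 10 bp grid, with widths of 80 to 240 bp. Read depth is unknown.

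Groups came from the sample titles. Each has 1 library, so no test was made. Shares have Wilson, counts exact Poisson intervals at 95%. The ethanol-only set and the comparisons were chosen with earlier results of these data known. Named regions are the 5 highest scores, with ties taken in chromosome order, the 5 farthest from tamoxifen and the 3 largest groups within 1 kb. Ties among those groups were taken by summed score. Also named are the gap with most ethanol calls and calls beside each threshold. Facing pairs, gaps of weaker calls and the proximal stretch of chromosome 9 were added after the values had been seen. Genes and sequences were not analysed here, as no mm9 genome or annotation was used. The calculation was checked on a copy of the chromosome 19 ethanol calls with 200 strong calls removed and the rest slightly moved. The rule found 100% of the removed calls and no others. Only calls well apart from other ethanol calls were removed, and the moves were smaller than the distance limit, so this outcome was fixed. It does not show what share of missing nucleosomes the rule finds in the real lists. Calculations ran in Python 3.11.15 with pandas 2.3.3, numpy 2.4.6, matplotlib 3.10.9 and scipy 1.17.1.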

Additional observations from a re-analysis of the deposited data

How the results depend on the processing

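No paired analysis was possible because there is a single library per group. That, unknown read depth and an undefined score limit every value, and shares depend on thresholds that cut through continuous distributions. The chosen quantities were the number and share of ethanol-only nucleosomes, and the ratio of their share to the tamoxifen-only share. Next came the share with another one within 1 kb, median width and the share with the nearest ethanol neighbour 140 to 250 bp away. The last were the share of flanking neighbours with a partner and median score. In this order the main values were 3098, 2.49%, 0.838, 4.42%, 140 bp, 28.3%, 59.4% and 229.9. A score minimum of 150 gave 12317, 5.11%, a ratio of 0.789, a width of 130 bp, 22.6% with a neighbour and a score of 174.1. A minimum of 300 gave 561, 1.21%, a ratio of 1.004 (0.894 to 1.13), level within the counting interval, 10.7% with another one within 1 kb, 39.0% with a neighbour, 64.1% with a partner and a score of 375.5. A distance limit of 150 bp gave 3.43%, a ratio of 0.888, 5.46% with another one, a width of 130 bp, 41.5% with a neighbour, 62.2% with a partner and a score of 234.3. A limit of 300 bp gave 1.73%, a ratio of 0.799 and 17.2% with a neighbour. With partners limited to the upper part of each list, from its median score on, the values were 10498, 8.43%, 0.888, 3.45%, 130 bp, 25.7% and 40.3%, as fewer partners leave more calls unmatched by construction. For the other settings the cause was not tested. Without chromosomes 8 and 12 the share was 2.74%, with 26.3% and 56.5% for neighbours and their partners. Distances between edges gave 2009, or 1.61%, and equal numbers of highest-scored calls a ratio of 0.895. Another one lay within 5 kb for 7.00%, and the nearest ethanol neighbour was 140 to 400 bp away for 51.8%. A partner within 20 bp was present for 45.3% of the flanking neighbours. Other alternatives, 33 of 72, stayed within the counting interval of the main value, or within 1.5 times the count. Among them are all 16 that leave out the proximal stretch of chromosome 9 or the calls at the maximum score, which were added after the data had been seen.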
